A study of Mus musculus with 14 samples.

Results

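The genes described here are 10 members of the albumin family and the plasma carrier proteins of the liver: Alb, Afp, Gc, Ttr, Rbp4, Trf, Ahsg, Fetub, Ambp and Itih4. They were chosen by symbol from a mouse liver table of 20377 gene symbols in 26005 transcript rows, with the row of highest mean kept where a symbol had several. All 10 were found and all 10 passed the filter for testing. Levels are RPKM, read numbers divided by transcript length and by the mapped reads of the library. Differences between the groups on this deposited scale depend on how the libraries are scaled, as given below.

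The libraries came from C57BL/6 chimeric mice in which mature hepatocytes carried a red fluorescent marker (mTomato). All of the mice, those that gave the hepatocytes included, had been given DDC at 0.1% over 5 to 8 weeks, a dihydrocollidine compound that causes porphyrin to build up and injures bile ducts and hepatocytes, and livers were dispersed with collagenase. Hepatocytes gave 4 libraries, numbered 118, 225, 248 and 611. Ductal cells were sorted as MIC1-1C3+, CD11b/26/31/45- cells of low side scatter and divided by the marker. The 5 libraries of mTomato+ ductal cells (219, 220, 225, 248 and 611), called oval cells in the labels, are attributed to donor hepatocytes. The 5 libraries of mTomato-neg ductal cells (118, 219, 220, 225 and 611) are attributed to host cholangiocytes. There was no group without DDC, so that every level is a level in injured liver. A marked cell is identified by its marker and a host cell only by the lack of it, so that unmarked ductal cells of hepatocyte origin cannot be told apart from host ducts. Nothing in the labels says whether equal numbers mark one animal, and p-values then measure the spread between these libraries.

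Hepatocytes make most of the protein dissolved in blood plasma. Albumin carries fatty acids, bilirubin, hormones and drugs and holds most of the osmotic pressure of plasma, and the alpha-fetoprotein gene beside it is the fetal counterpart that falls silent after birth and returns in liver tumours and some forms of regeneration. Other secreted carriers move single cargoes: vitamin D with the Gc protein, retinol with Rbp4 and transthyretin, iron with transferrin, and calcium phosphate with fetuin. In a resting liver the cells of bile ducts are not regarded as a source of plasma protein, and expression of albumin in ductal or oval cells is a long-used sign of a mixed phenotype.

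The sequences just before the transcription start are shown for 4 members: Alb, Afp, Gc and Ambp. The neighbours Alb and Afp stood at opposite ends of the range of levels, and Gc is their relative. Ambp had the largest share of the hepatocyte level among the members that were lower in ductal cells. The sequences are taken from the RefSeq table for GRCm38.p6 and end at the base before the start. They lie at chr5:90460620-90460869 on the plus strand (Alb), chr5:90490464-90490713 on the plus strand (Afp), chr5:89457899-89458148 on the minus strand (Gc) and chr4:63154173-63154422 on the minus strand (Ambp). Capitals mark GTTAAT, an arm of a palindrome known from the promoters of many liver genes.
Alb: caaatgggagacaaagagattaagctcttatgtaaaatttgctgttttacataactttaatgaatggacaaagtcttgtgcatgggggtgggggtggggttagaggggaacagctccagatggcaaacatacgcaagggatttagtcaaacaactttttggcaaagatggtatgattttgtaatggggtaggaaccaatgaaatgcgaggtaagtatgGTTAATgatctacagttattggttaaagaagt
Afp: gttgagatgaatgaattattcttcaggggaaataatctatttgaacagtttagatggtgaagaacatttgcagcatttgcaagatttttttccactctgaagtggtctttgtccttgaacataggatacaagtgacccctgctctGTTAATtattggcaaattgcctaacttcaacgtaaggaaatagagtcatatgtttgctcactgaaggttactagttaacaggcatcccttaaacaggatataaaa
Gc: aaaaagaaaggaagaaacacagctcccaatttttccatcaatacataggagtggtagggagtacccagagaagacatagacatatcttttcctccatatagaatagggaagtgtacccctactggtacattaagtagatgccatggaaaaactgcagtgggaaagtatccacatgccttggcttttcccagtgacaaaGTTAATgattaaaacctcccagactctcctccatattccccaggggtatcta
Ambp: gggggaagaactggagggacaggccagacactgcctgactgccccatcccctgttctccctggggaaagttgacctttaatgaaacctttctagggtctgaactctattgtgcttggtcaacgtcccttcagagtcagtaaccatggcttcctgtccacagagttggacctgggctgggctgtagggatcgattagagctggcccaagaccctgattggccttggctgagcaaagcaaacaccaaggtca

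The first base of GTTAAT lay 32 bases before the start in Alb, 52 in Gc and 105 in Afp. Of the 10 members 8 were searched, with 10 windows of 250 bases between them. Trf had no entry and Ttr was left out, an omission by chromosome that was not made for the windows at large. GTTAAT occurred on either strand in 3 of those 10 windows, against 6.43% of 32851 windows of that length. A further 3 motifs were searched on both strands. TGTTTGC, a forkhead motif, was in 5 of the 10 windows and in 4.30% of all windows, CCAAT in 6 and in 33.8%, and TATAAA in 3 and in 12.4%. Matches of different motifs overlapped in 0 places. These matches describe the letters only.

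Before the members' results, the libraries themselves can be summarised. Values of short low genes place their depth at an estimated 20800000 to 30500000 reads, a 1.47-fold range, so that every member but Afp rested on an estimated 526 reads or more in every library. Afp had as few as 51.3 estimated reads, where counting error alone is about 14%. Of the biliary markers 8 of 8 were higher in both ductal groups than in hepatocytes, with median log2 differences of 4.20 and 6.31, on a scale where 66.2% and 67.1% of all symbols were higher, and osteopontin (Spp1), the most abundant, averaged 17559.8 and 18618 RPKM in hepatocyte-derived and cholangiocyte-derived ductal cells against 938 in hepatocytes. Between the ductal groups 4 of the 8 were lower in hepatocyte-derived cells, against 21.0% of all symbols, and 0 were higher. The 4 were Krt19 (42.5 against 658 RPKM in cholangiocyte-derived cells), Krt7 (35.7 against 302), Epcam (85.3 against 545) and Cftr (11.5 against 49.8). Transcripts of other cells were uneven. The summed level of 9 macrophage genes ran from 27.2 to 1211 RPKM in hepatocytes (highest in library 118), from 25.3 to 138 in hepatocyte-derived and from 49.5 to 363 in cholangiocyte-derived ductal cells. Lyz2 led that list, and the sum of 7 stellate and fibroblast genes, led by Dcn, was 324 and 384 RPKM in cholangiocyte-derived libraries 118 and 220 against 9.47 to 25.8 in the hepatocyte-derived ones. Endothelial sums reached 195 (hepatocyte library 118, led by Clec4g), neutrophil sums 141 (S100a9), erythroid sums 29.7 (Alas2) and lymphocyte sums 2.15 (Nkg7).

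The scale of the comparisons matters here, and the members' share of all RPKM differed between the groups. The 10 members held 12.03% ± 2.37 (SD, n = 4) of all RPKM in hepatocytes, 3.90% ± 0.435 (n = 5) in hepatocyte-derived and 1.76% ± 0.0789 (n = 5) in cholangiocyte-derived ductal cells. Alb alone held 6.00% ± 1.61, 0.965% ± 0.277 and 0.613% ± 0.108. Differences were tested with limma on log2(RPKM + 1) over 12638 symbols with Benjamini-Hochberg adjustment, and log2 differences below are on that scale. Between hepatocyte-derived ductal cells and hepatocytes 66.2% of all symbols were called higher and 14.8% lower, at an adjusted p under 0.05, with a median difference over all symbols of 0.67. Between cholangiocyte-derived ductal cells and hepatocytes 67.1% were higher and 17.4% lower, with a median of 0.76. After rescaling by median ratios the medians were 0.01 and 0.05, and the calls split into 4670 higher and 4613 lower in the first comparison and 5050 higher and 4821 lower in the second. Quantile normalization gave 4596 and 4136, and 4891 and 4769. Between the ductal groups the median was -0.03, with 15.1% higher and 21.0% lower, and quantile normalization raised the number called higher from 1913 to 3069.

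Read against those backgrounds, 9 of the 10 members fell from hepatocytes to ductal cells of hepatocyte origin, and as many fell from hepatocytes to those of cholangiocyte origin, against 14.8% and 17.4% of all symbols, although quantile normalization turned Gc, Ahsg and Ambp in the first comparison and Ambp in the second. Both comparisons use the same 4 hepatocyte libraries. In either one the exception was Afp. For the 9 no ductal library reached the lowest hepatocyte library, and how many of all symbols were likewise apart is not given here. The median log2 difference over the members was -1.79 in the hepatocyte-derived and -3.13 in the cholangiocyte-derived cells. Between the ductal groups 8 of 10 members were higher in the hepatocyte-derived cells, against a background of 15.1%, and 0 were lower. Fewer cells making a transcript and less of it in each cell cannot be told apart in such bulk libraries.

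**Figure D1:**
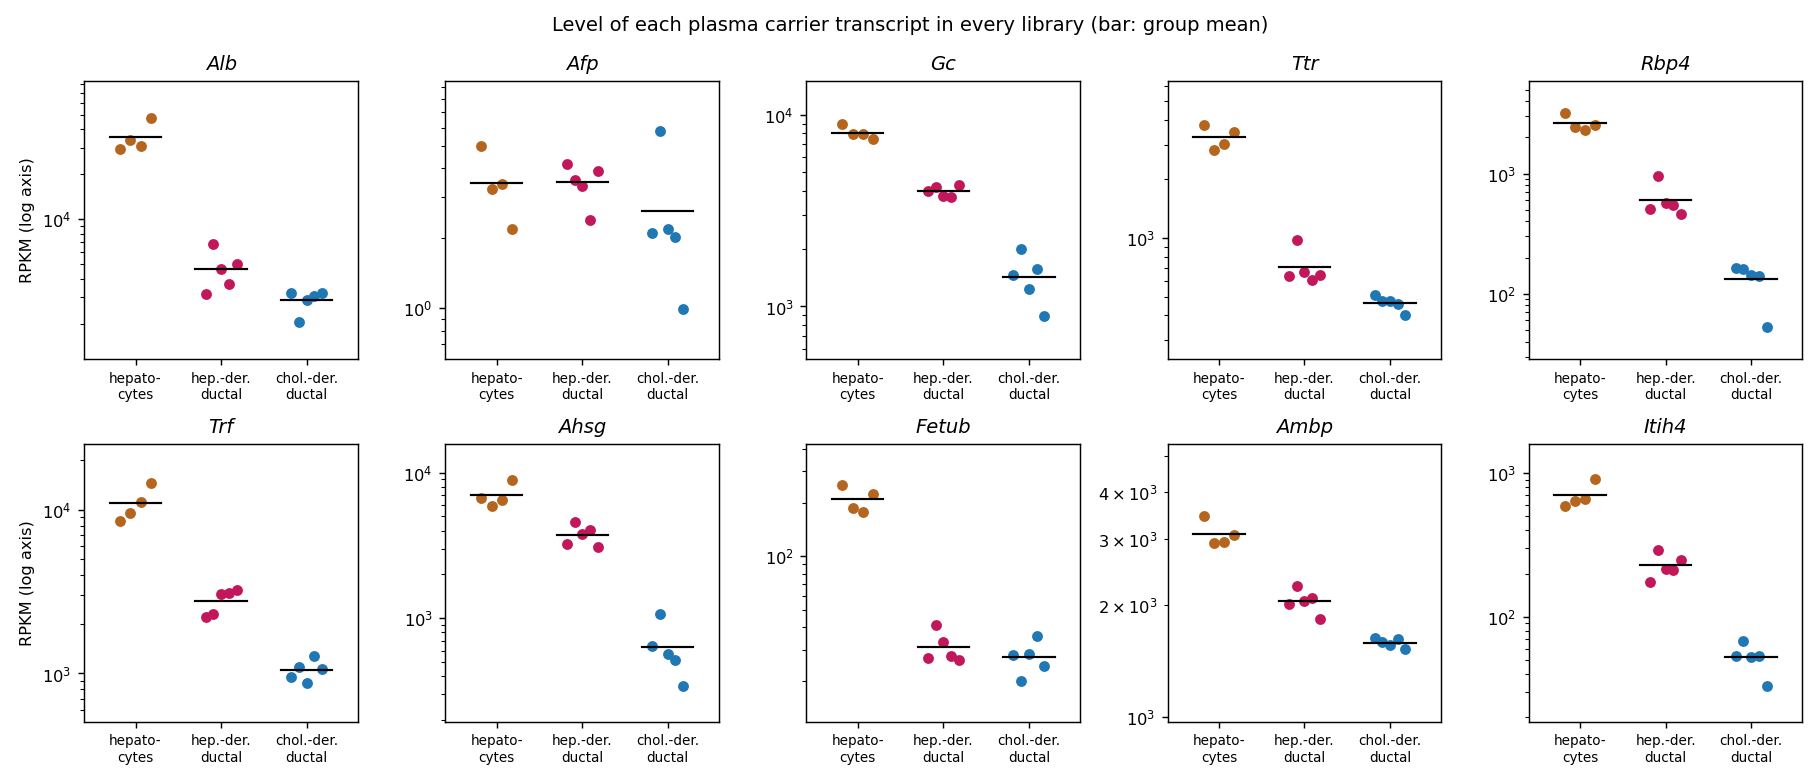
RPKM on log axes in each of 14 libraries for the 10 members, one panel a gene and one point a library, with bars at group means of 4 hepatocyte, 5 hepatocyte-derived ductal and 5 cholangiocyte-derived ductal libraries. On this deposited scale all panels but Afp step down from hepatocytes to ductal cells, and Alb and Fetub overlap between the ductal groups.

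Alb (NM_009654, mm9 chr5:90889915-90905629, plus strand), the main protein of plasma, was the most abundant symbol in all 4 hepatocyte libraries, at 29747, 33681, 31050.3 and 47947 RPKM in libraries 118, 225, 248 and 611. Hepatocyte-derived ductal cells had 3152, 6810.3, 4614, 3706 and 4986 RPKM in libraries 219, 220, 225, 248 and 611, and cholangiocyte-derived ductal cells 3193, 2034, 2867, 3054 and 3215 in libraries 118, 219, 220, 225 and 611. Hepatocyte library 611 was highest of its group, ductal library 220 highest among the hepatocyte-derived ones, and the ductal groups overlapped. Alb was thus 7.65-fold lower in hepatocyte-derived cells (log2 difference -2.96 ± 0.24 SE, adjusted p = 4.48e-08) and 12.4-fold lower in cholangiocyte-derived cells (-3.62 ± 0.24, 3.42e-09). It nevertheless ranked 3 to 6 among all symbols in the former and 4 to 6 in the latter. The difference between the ductal groups was small (0.66 ± 0.23, adjusted p = 0.0359). It missed the threshold on leaving out hepatocyte-derived library 220, 225 or 611 or cholangiocyte-derived library 219, 220 or 225, one at a time, where adjusted p ran from 0.0541 to 0.0924, without the 3 libraries richest in transcripts of other cells (0.0613), with a pseudocount of 0.1 (0.0607), and under quantile normalization, where the difference was 0.05. With no filter on low values the 3 Alb differences kept their size and none was called (adjusted p = 0.612, 0.461 and 1).

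Afp (NM_007423, chr5:90919740-90937933, plus strand), which encodes alpha-fetoprotein, lies just downstream of Alb and was the one member at a low level. Hepatocytes had 5.02, 3.26, 3.43 and 2.19 RPKM, hepatocyte-derived ductal cells 4.18, 3.55, 3.37, 2.41 and 3.90, and cholangiocyte-derived ductal cells 2.10, 5.81, 2.19, 2.02 and 0.99, in the library order given for Alb. The 3 groups overlapped, and cholangiocyte-derived library 219 stood above all other 13. On the deposited scale Afp was not called in any of the comparisons: 0.02 ± 0.28 in hepatocyte-derived cells against hepatocytes (95% interval -0.57 to 0.62, adjusted p = 0.941), -0.39 ± 0.28 in cholangiocyte-derived cells against hepatocytes (-0.99 to 0.21, 0.200) and 0.42 ± 0.26 between the ductal groups (-0.15 to 0.98, 0.246). Without cholangiocyte-derived library 219, Afp was lower in that group than in hepatocytes (-0.65, adjusted p = 0.00891) and higher in hepatocyte-derived than in cholangiocyte-derived cells (0.68, adjusted p = 0.0142). Rescaling also made it lower in cholangiocyte-derived cells than in hepatocytes, by -1.03 after median ratios (adjusted p = 0.00256) and -1.63 after quantile normalization (adjusted p = 7.67e-05), and higher in hepatocyte-derived than in cholangiocyte-derived cells after quantile normalization (0.68, adjusted p = 0.0469). In these comparisons adjusted p ranged over the alternatives from 7.67e-05 to 0.632 and from 0.0142 to 0.528. The sign of the difference between hepatocyte-derived cells and hepatocytes also turned with the scaling, to -0.61 after median ratios (adjusted p = 0.0502) and -0.95 after quantile normalization (adjusted p = 0.00656), within a range of 0.00656 to 1 over the alternatives.

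Gc (NM_008096, chr5:89846547-89886790, minus strand), the vitamin D-binding protein and the third family member among the 10, had 8909.97, 7943, 7969 and 7467 RPKM in hepatocytes. Hepatocyte-derived ductal cells had 4001, 4193, 3759.8, 3717 and 4319 RPKM, and cholangiocyte-derived ductal cells 1461, 2005, 1231, 1559.6 and 895. The 3 groups did not overlap, and the hepatocyte-derived libraries averaged 3998 ± 263 RPKM (SD, n = 5). Gc was 2.02-fold lower in hepatocyte-derived (log2 difference -1.01 ± 0.19, adjusted p = 2.16e-04) and 5.64-fold lower in cholangiocyte-derived cells (-2.54 ± 0.19, 1.27e-08) than in hepatocytes. Between the ductal groups it was higher in hepatocyte-derived cells by 1.53 ± 0.18 (adjusted p = 1.17e-05). The first of these did not survive quantile normalization, which gave 0.04, and with no filter on low values the first and the last kept their size but not the call (adjusted p = 0.493 and 0.313). Afm, the fourth gene of the family and a vitamin E carrier, averaged 80.8 RPKM in hepatocytes, 10.004 in hepatocyte-derived and 4.24 in cholangiocyte-derived ductal cells. On the log2 scale Afm fell by 2.87 in the former and by 3.94 in the latter, with an SE of 0.20 each.

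Ttr and Rbp4 encode transthyretin, a carrier of thyroxine, and the retinol-binding protein that travels bound to it. Ttr (NM_013697) stood at 3785, 2800.2, 3034 and 3491 RPKM in hepatocytes, at 635, 971, 667, 608 and 646 in hepatocyte-derived and at 508, 472, 475, 460.2 and 401 in cholangiocyte-derived ductal cells. Rbp4 (NM_011255, chr19:38191110-38199301, minus strand) stood at 3196, 2432, 2324 and 2517 RPKM in hepatocytes, at 503, 948, 566, 544 and 459 in hepatocyte-derived and at 164, 162, 144, 139 and 52.7 in cholangiocyte-derived cells. No group overlapped another for either gene, library 220 was highest of the hepatocyte-derived cells for both, and cholangiocyte-derived library 611 was lowest for both. Their falls were close in size in hepatocyte-derived cells and apart in cholangiocyte-derived cells, a difference between the genes that was not tested directly. Ttr fell 4.65-fold in hepatocyte-derived (log2 difference -2.23 ± 0.14, adjusted p = 4.01e-09) and 7.07-fold in cholangiocyte-derived cells (-2.81 ± 0.14, 2.08e-10), and the ductal groups differed by 0.59 ± 0.14 (0.00343). Rbp4 fell 4.33-fold (-2.15 ± 0.30, 1.09e-05) and 19.8-fold (-4.39 ± 0.30, 4.03e-09), the largest fold among the members, and the ductal groups differed by 2.24 ± 0.28 (2.07e-05).

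Trf (NM_133977, chr9:103111206-103132616, minus strand) encodes transferrin, the iron carrier of plasma. It had 8558, 9597, 11077 and 14643 RPKM in hepatocytes, 2207, 2307, 3036, 3083 and 3232 in hepatocyte-derived and 958, 1099, 876, 1281 and 1065 in cholangiocyte-derived ductal cells, without overlap. Against hepatocytes it was 3.96-fold lower in hepatocyte-derived (-1.97 ± 0.19, adjusted p = 2.02e-07) and 10.4-fold lower in cholangiocyte-derived cells (-3.36 ± 0.19, 4.84e-10). The ductal groups differed by 1.39 ± 0.18 (2.21e-05). Its receptor Tfrc, tested among the uptake partners, took the other direction between the ductal groups, with 12.8 RPKM in hepatocyte-derived and 32.4 in cholangiocyte-derived cells (-1.29 ± 0.18, 4.89e-05).

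The fetuins are secreted cystatin-like proteins, encoded side by side on chromosome 16. Ahsg (NM_013465, chr16:22892115-22899511, plus strand), fetuin-A, an inhibitor of ectopic calcification, had 6693, 5939.5, 6473 and 8934 RPKM in hepatocytes, 3241, 4556, 3799.98, 4038 and 3078 in hepatocyte-derived and 647, 1072, 572, 515 and 344 in cholangiocyte-derived ductal cells. Fetub (NM_001083904, chr16:22920295-22939841, plus strand), fetuin-B, which keeps the egg coat from hardening before fertilisation, had 251, 186, 178 and 223 RPKM in hepatocytes, 26.9, 41.1, 33.2, 27.7 and 26.1 in hepatocyte-derived and 27.9, 20.1, 28.2, 35.7 and 24.3 in cholangiocyte-derived cells. The groups were apart for Ahsg, whereas for Fetub the ductal groups overlapped over most of their range. Ahsg was 1.87-fold lower in hepatocyte-derived cells than in hepatocytes (-0.90 ± 0.26, adjusted p = 0.00526), a difference of 0.30 with the opposite sign after quantile normalization, and 11.1-fold lower in cholangiocyte-derived cells (-3.56 ± 0.26, 8.33e-09). Its difference between the ductal groups, 2.65 ± 0.25 (9.96e-07), was the largest of the 10. Fetub was 6.76-fold and 7.70-fold lower than in hepatocytes (-2.73 ± 0.17, 2.19e-09, and -2.91 ± 0.17, 6.15e-10). Its difference between the ductal groups was 0.18 ± 0.16 (95% interval -0.15 to 0.52, adjusted p = 0.405).

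Ambp encodes the precursor of alpha-1-microglobulin, a small scavenger of haem and radicals, and of bikunin, the light chain that binds the heavy chains of the inter-alpha-trypsin inhibitor. Ambp (NM_007443, chr4:62804313-62815176, minus strand) had 3445, 2913, 2933 and 3071 RPKM in hepatocytes, 2007, 2239.98, 2041, 2088 and 1828 in hepatocyte-derived and 1632, 1586, 1557, 1618 and 1518 in cholangiocyte-derived ductal cells. The groups were apart and narrow, with an SD of 2.91% of the mean in cholangiocyte-derived cells. Of the 9 members that fell it fell least: 1.51-fold (-0.60 ± 0.11, adjusted p = 1.16e-04) and 1.95-fold (-0.96 ± 0.11, 8.06e-07). Between the ductal groups it differed by 0.36 ± 0.10 (adjusted p = 0.0104), a difference of -0.02 after quantile normalization. That difference was not called with no filter on low values (0.662) or with libraries of one number treated as a block (0.0649). The rank of Ambp among all symbols was 19 to 23 in hepatocytes, 10 to 14 in hepatocyte-derived and 10 to 13 in cholangiocyte-derived cells. Quantile normalization, which works on ranks, turned both differences from hepatocytes to 0.58 (adjusted p = 2.98e-04) and 0.60 (adjusted p = 1.74e-04), while median ratios made them larger falls, and adjusted p ranged from 3.62e-08 to 0.333 and from 1.49e-09 to 0.0893 over the alternatives. The direction of Ambp against hepatocytes thus held on the deposited scale and after median ratios but not after quantile normalization.

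Itih4 (NM_001159299, chr14:31699678-31715169, plus strand), a kallikrein-sensitive relative of those heavy chains, had 590.06, 641, 662 and 906 RPKM in hepatocytes, 176, 292, 215, 213 and 249.5 in hepatocyte-derived and 53.6, 67.5, 52.7, 53.3 and 32.8 in cholangiocyte-derived ductal cells. No group overlapped another. It was 3.06-fold lower (-1.61 ± 0.19, 2.47e-06) and 13.5-fold lower (-3.74 ± 0.19, 2.26e-10) than in hepatocytes, and 2.13 higher on the log2 scale in hepatocyte-derived than in cholangiocyte-derived cells, the smallest p of the 10 in that comparison. The heavy chain genes themselves were lower than in hepatocytes to unequal extents: the log2 differences in hepatocyte-derived and cholangiocyte-derived cells were -2.03 and -3.64 for Itih1, -0.48 and -1.82 for Itih2 and -2.95 and -4.43 for Itih3. Thus of the chains that bikunin joins, Itih2 stayed closest to hepatocytes at 560 and 221 RPKM against 787.

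Expressed as the share of the hepatocyte mean that was kept, the members spread widely. Hepatocyte-derived ductal cells kept 13.1% ± 3.95 (SD over 5 libraries) of Alb, 14.8% ± 2.99 of Fetub, 21.5% ± 4.57 of Ttr, 23.1% ± 7.52 of Rbp4, 25.3% ± 4.36 of Trf, 32.7% ± 6.28 of Itih4, 49.5% ± 3.26 of Gc, 53.4% ± 8.58 of Ahsg, 66.0% ± 4.80 of Ambp and 100.2% ± 19.5 of Afp. In this order Alb and Fetub, then Ttr, Rbp4 and Trf, then Gc and Ahsg, did not differ from their neighbours beyond the spread over libraries. Cholangiocyte-derived ductal cells kept 5.06% ± 1.75 of Rbp4, 7.43% ± 1.77 of Itih4, 8.07% ± 1.37 of Alb, 8.98% ± 3.87 of Ahsg, 9.63% ± 1.40 of Trf, 13.0% ± 2.74 of Fetub, 14.1% ± 1.19 of Ttr, 17.7% ± 5.09 of Gc, 51.2% ± 1.49 of Ambp and 75.5% ± 53.2 of Afp. Here Itih4, Alb, Ahsg and Trf each lay within the spread of their neighbour in order, and so did Fetub, Ttr and Gc, and Ambp and Afp. The median over the members was 29.0% in the former and 11.3% in the latter. Alb, the usual marker, thus had the lowest mean share in hepatocyte-derived ductal cells, with Fetub within its spread, and the third lowest in cholangiocyte-derived ones. The shares depend on scaling, and median ratios, which set the all-gene median near 0, brought the medians to 16.5% and 6.30% and Alb to 7.44% and 4.49%. Quantile normalization moved them the other way, to medians of 53.8% and 24.3%, with Alb at 19.7% and 18.9% and Ambp at 149.3% and 151.1%.

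**Figure D2:**
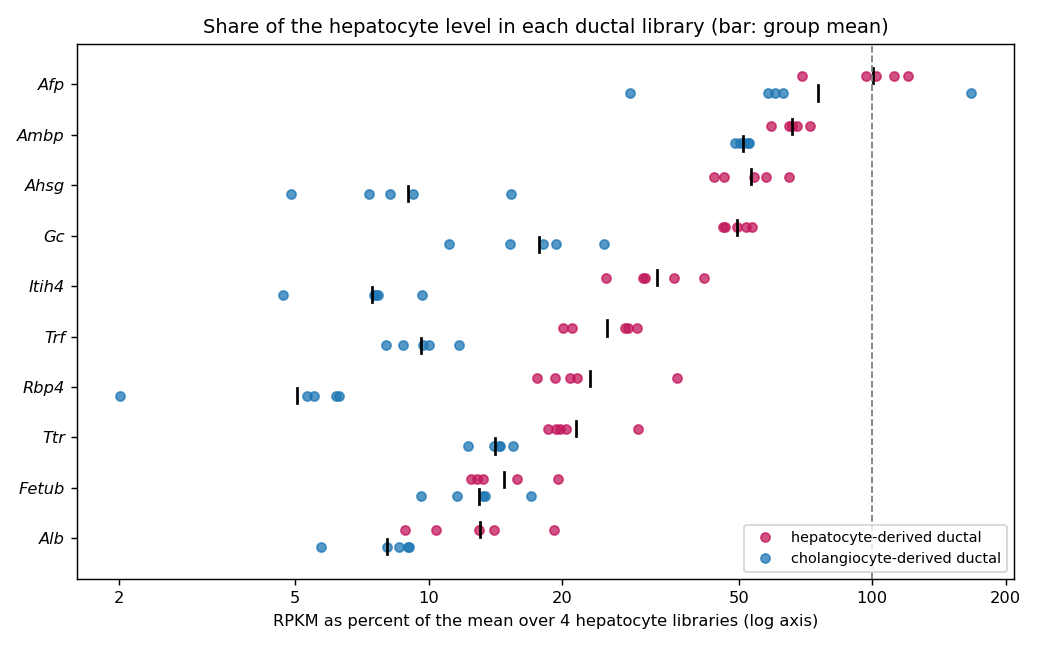
RPKM of each member in each of the 5 hepatocyte-derived and 5 cholangiocyte-derived ductal libraries, as a percent of the mean over 4 hepatocyte libraries (log axis), with bars at group means. Ahsg, Gc, Rbp4, Trf and Itih4 separate the ductal groups widely, Ambp stays above 49.1% in both, and Fetub lies at 13.0% to 14.8% in both means.

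Apart from the 1 added to each RPKM, a change relative to Alb of the same library does not depend on a scale factor between libraries. That addition weighs most on Afp, at 0.99 to 5.81 RPKM, whose values relative to Alb still shift with scaling. The comparison asks whether the members fell by one factor. They did not. In hepatocyte-derived ductal cells against hepatocytes 8 of the other 9 members stood higher relative to Alb, against a background of 97.4% of all symbols, and 0 stood lower, against 1.18%. The excess over Alb was 2.98 ± 0.33 for Afp, 2.36 ± 0.35 for Ambp, 2.06 ± 0.36 for Ahsg, 1.95 ± 0.37 for Gc, 1.35 ± 0.30 for Itih4, 0.99 ± 0.36 for Trf, 0.81 ± 0.33 for Rbp4 and 0.73 ± 0.33 for Ttr on the log2 scale. Fetub alone was not called (0.23 ± 0.29, 95% interval -0.34 to 0.81, adjusted p = 0.427), and it, Trf and Rbp4 had overlapping libraries. With library weights Fetub was called higher as well (0.40, adjusted p = 1.09e-07). The Ttr call was lost without hepatocyte library 225 or 611 or ductal library 219 or 248 (adjusted p 0.0515 to 0.0758) or with no filter on low values (0.0531), and the Rbp4 call without hepatocyte library 611 (0.0502). Since Alb fell more than nearly every symbol, a share near the background is no result about the members.

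In cholangiocyte-derived ductal cells against hepatocytes the members divided. Afp (3.23 ± 0.33), Ambp (2.66 ± 0.35), Gc (1.08 ± 0.37), Ttr (0.81 ± 0.33) and Fetub (0.71 ± 0.29) were higher relative to Alb, 5 of 9 against a background of 97.0%. Rbp4 was lower (-0.77 ± 0.33, adjusted p = 0.0224), 1 of 9 against a background of 1.38%. Ahsg (0.07 ± 0.36, 0.852), Trf (0.27 ± 0.36, 0.461) and Itih4 (-0.12 ± 0.30, 0.703) were not called, with intervals from -0.64 to 0.78, -0.44 to 0.97 and -0.72 to 0.49. Under quantile normalization Trf was called higher relative to Alb (0.63, adjusted p = 0.0368) and Itih4 lower (-0.80, adjusted p = 0.00183). The call on Rbp4 rested on 2 libraries and was lost without hepatocyte library 118 (adjusted p = 0.0741) or cholangiocyte-derived library 611 (0.221), and without the 3 libraries richest in transcripts of other cells (0.0698). The Fetub call was lost without cholangiocyte-derived library 225 (0.0532) and turned to -0.36 under quantile normalization.

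Between the ductal groups, 4 of 9 members were higher relative to Alb in hepatocyte-derived cells, where the background was 2.57% higher and 60.5% lower. These were Ahsg (1.99 ± 0.34, adjusted p = 4.39e-07), Rbp4 (1.57 ± 0.31, 1.28e-05), Itih4 (1.47 ± 0.29, 9.95e-06) and Gc (0.87 ± 0.35, 0.0274), and 0 were lower. The libraries of the groups did not overlap for Ahsg, Rbp4 and Itih4. Gc overlapped, and it missed the threshold without hepatocyte-derived library 219 or cholangiocyte-derived library 220 or 611 (0.0572 to 0.0832), without the 3 libraries richest in transcripts of other cells (0.0759) and with no filter on low values (0.0590). Trf missed the threshold narrowly (0.72 ± 0.34, adjusted p = 0.0531), and it was called in 11 alternatives, among them the fit on these 2 groups only (0.0350), a pseudocount of 5 (0.0367) and leaving out hepatocyte library 118 or 611, hepatocyte-derived library 220 or cholangiocyte-derived library 219 (0.0169 to 0.0340). The remaining members, Afp (-0.25), Ttr (-0.08), Ambp (-0.30) and Fetub (-0.48), had intervals that included 0, although without hepatocyte-derived library 219 Fetub was called lower (-0.56, adjusted p = 0.0483) and after quantile normalization Ttr was called higher (0.69, adjusted p = 0.00580). With library weights Fetub (-0.43, adjusted p = 1.20e-04) and Ambp (-0.25, adjusted p = 0.0246) were called lower.

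**Figure D3:**
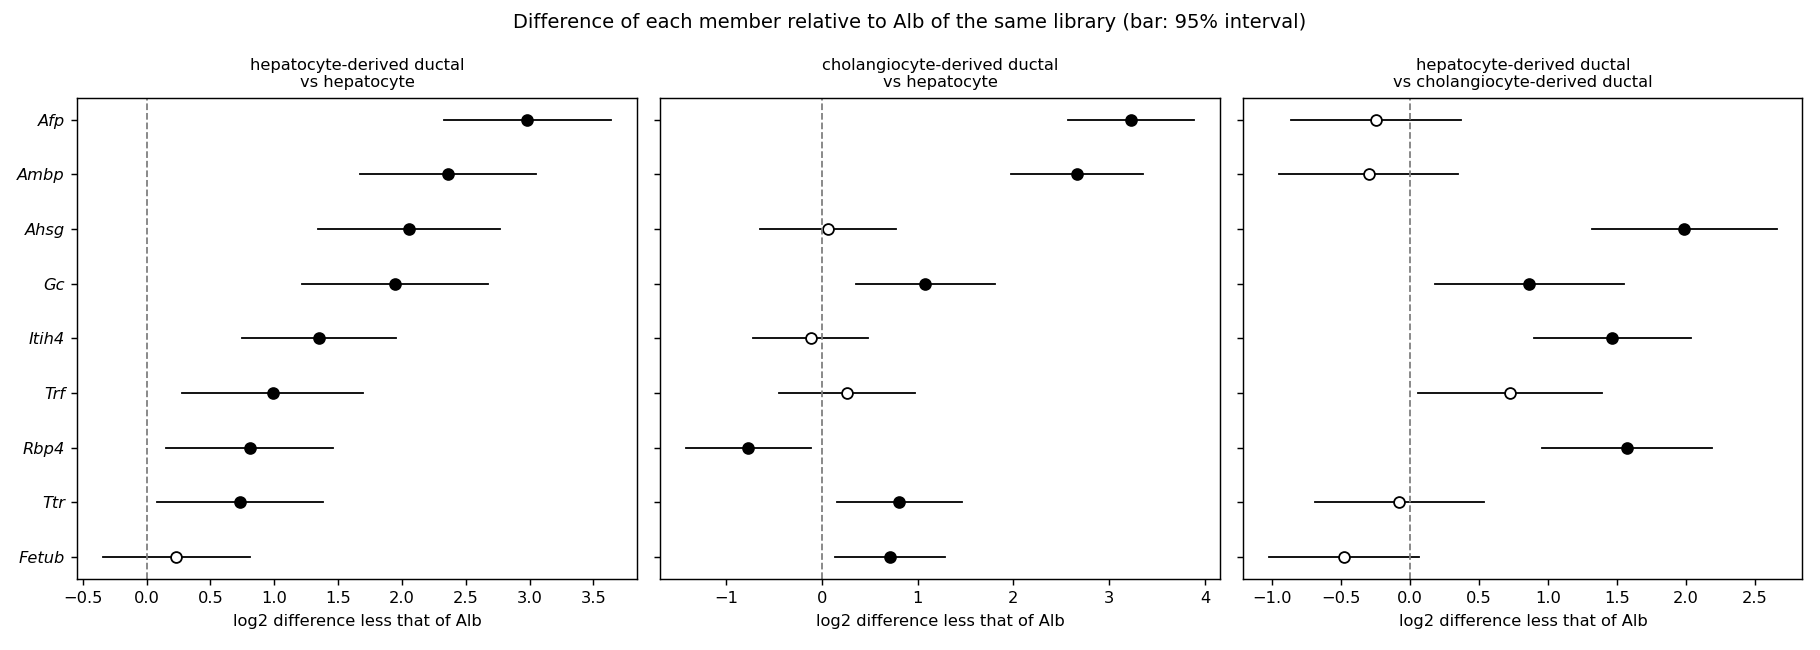
Log2 difference of 9 members less that of Alb in the same library, for the 3 comparisons, with 95% intervals and filled points at an adjusted p under 0.05. In the right panel Ahsg, Gc, Itih4 and Rbp4 lie above 0 while Afp, Ambp, Ttr and Fetub straddle it.

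Levels of other genes made by hepatocytes were set beside the members in the same libraries, since hepatocyte RNA carried into a ductal sort would bring both. The 12 genes, among them cytochrome P450s, Apoa1, Ass1, Ugt1a1 and the uptake carrier Slco1b2, were all lower in both ductal groups than in hepatocytes (12 of 12, against 14.8% and 17.4% of all symbols, and 11 in hepatocyte-derived cells after quantile normalization), with a median log2 difference of -5.13 and -5.11. Their median share of the hepatocyte level ran from 1.06% to 4.44% over the hepatocyte-derived and from 0.473% to 5.51% over the cholangiocyte-derived libraries. The members' median share in those libraries ran from 22.6% to 39.0% and from 10.4% to 12.9%, above the other genes in each of the 10 ductal libraries. In library 219 of either group the median share of the other genes was lowest, with single genes down to 0.0397% for Cyp2c29 in the hepatocyte-derived and 0.0315% in the cholangiocyte-derived one. In the same 2 libraries Alb was at 8.85% and 5.71%, Gc at 49.6% and 24.8%, Ahsg at 46.2% and 15.3% and Ambp at 64.9% and 51.3%. Tat, an enzyme of tyrosine breakdown, was the other gene kept most in each hepatocyte-derived library, at 23.8% to 37.5% and highest in library 219, and the 1 of 12 that was higher there than in cholangiocyte-derived cells (2.41 ± 0.45, adjusted p = 6.12e-04). How far hepatocyte RNA adds to the members' ductal levels was not tested beyond these values.

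**Figure D4:**
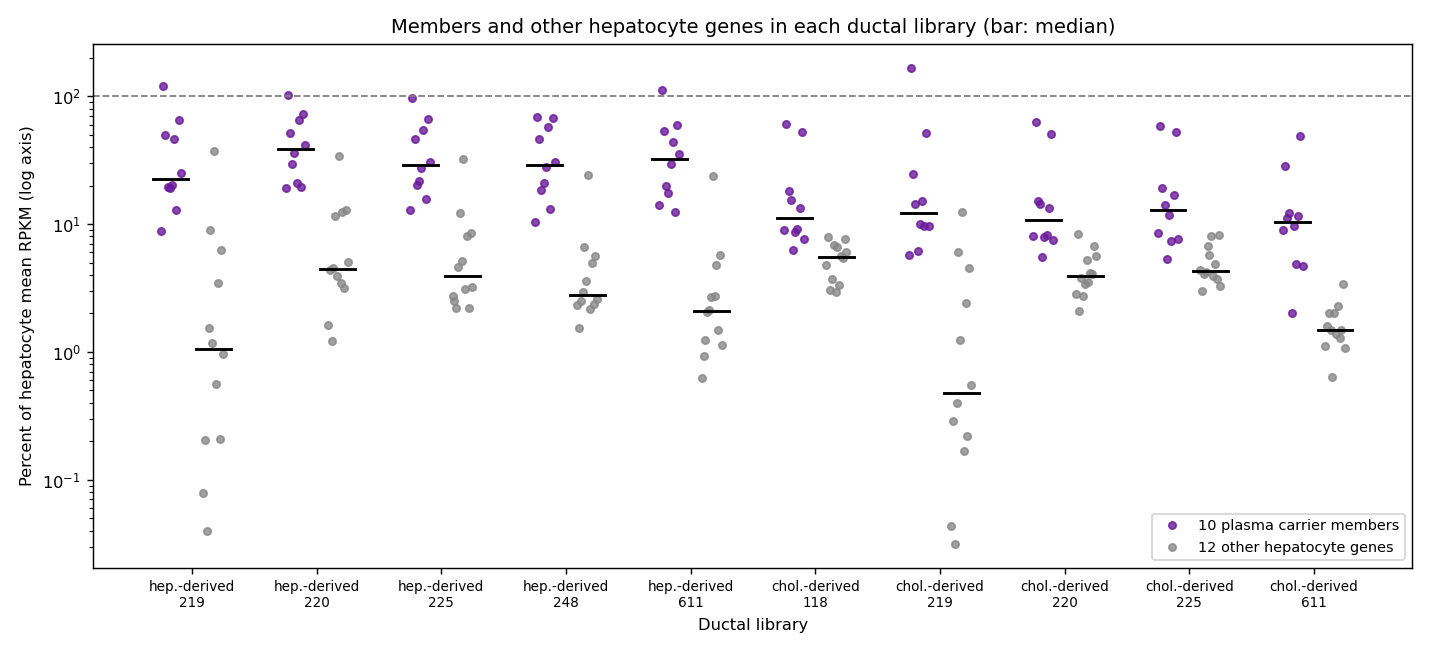
Share of the hepatocyte mean (percent, log axis) in each ductal library for the 10 members and for 12 other hepatocyte genes, with bars at medians. The members' bar lies above that of the other genes in every library, and the other genes drop furthest in library 219 of either group, to medians of 1.06% and 0.473%. Single genes of both lists overlap in every library.

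Among 22 other proteins of plasma transport and binding, 20 were tested. In hepatocyte-derived ductal cells against hepatocytes 18 were lower and 1 higher, in cholangiocyte-derived cells 18 lower and 1 higher, and between the ductal groups 15 were higher in the hepatocyte-derived cells and 1 lower, with medians of -2.44, -3.99 and 1.07. Of all symbols 14.8% were lower in the first comparison and 17.4% in the second, and 15.1% were higher and 21.0% lower in the third. The smallest p-values in the first comparison belonged to Afm, Itih1, the kininogen gene Kng1 (-4.02 ± 0.32) and Azgp1 (-3.75 ± 0.31). The genes that rose were ceruloplasmin, Cp, the copper-binding ferroxidase, in hepatocyte-derived cells (0.54 ± 0.17, adjusted p = 0.00777), a call absent after median ratios, and lipocalin-2, Lcn2, in cholangiocyte-derived cells (1.58 ± 0.26, 5.41e-05). Lcn2 was also the single gene of this list lower in hepatocyte-derived than in cholangiocyte-derived cells (-1.95 ± 0.25, 2.06e-05). Cp and Lcn2, like Krt19, Krt7, Epcam, Tfrc, Tat and Cyp2c29 above, were chosen after their values were seen.

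Of 16 receptors and partners in uptake and recycling of these proteins, 12 were tested. Compared with hepatocytes 3 were higher and 6 lower in hepatocyte-derived cells and 4 higher and 6 lower in cholangiocyte-derived cells, against 66.2% higher and 14.8% lower, and 67.1% and 17.4%, of all symbols. Asgr1 and Asgr2, the subunits of the asialoglycoprotein receptor that clears desialylated plasma proteins, fell by 5.50 and 3.96 in hepatocyte-derived cells. The endocytic adaptor Dab2 rose (3.21 ± 0.37, adjusted p = 1.35e-06). Between the ductal groups 4 were higher and 2 lower in the hepatocyte-derived cells. Among the 13 transcription factors of the Alb and Afp genes, 7 were higher and 4 lower in hepatocyte-derived cells than in hepatocytes, 7 higher and 5 lower in cholangiocyte-derived cells, and 3 higher between the ductal groups. With 66.2% and 67.1% of all symbols higher than in hepatocytes and 15.1% higher between the ductal groups, the number of higher factors is no result about them. Foxa1 (1.78 ± 0.17) and Nr5a2 (1.23 ± 0.13) were among those higher in hepatocyte-derived cells. Zhx2 and Zfhx3, both known as repressors of Afp, were higher as well: Zhx2 had 24.4, 17.3 and 7.10 RPKM and Zfhx3 3.86, 4.63 and 0.995 in hepatocyte-derived ductal cells, cholangiocyte-derived ductal cells and hepatocytes. Their differences from hepatocytes were 1.66 ± 0.10 and 1.30 ± 0.16 in the former, at adjusted p of 1.63e-09 and 2.32e-06.

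**Figure D5:**
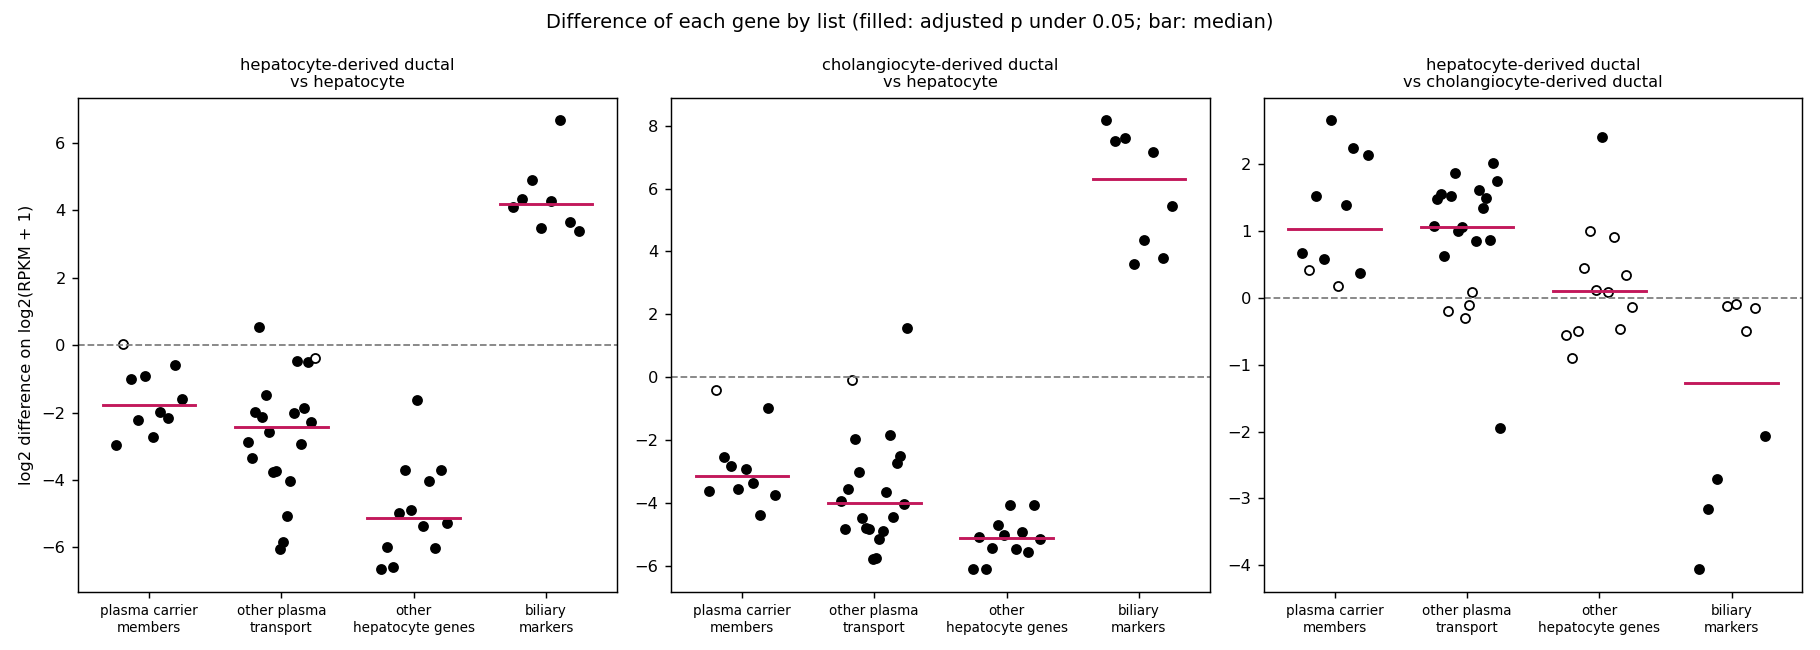
Log2 difference on log2(RPKM + 1) of each tested gene of 4 lists in the 3 comparisons, with a bar at the list's median and filled points at an adjusted p under 0.05. Between the ductal groups the members and the other plasma transport genes have medians of 1.03 and 1.07, the other hepatocyte genes 0.10 and the biliary markers -1.28.

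By Pearson correlation of log2(RPKM + 1) over the 14 libraries, which share the contrast of 3 groups, the 5 symbols whose pattern was most like Alb were Aspdh (r = 0.989), Sc5d (0.989), Gcat (0.988), Afm (0.988) and Pcyt2 (0.988). Of the members Ttr (0.983) and Fetub (0.977) came nearest to Alb, Ahsg had 0.753 and Afp 0.153. For Afp the closest 5 were Rnase1 (0.856), Asnsd1 (0.845), Zdhhc12 (0.838), Crygn (0.836) and Parp12 (0.835). These are descriptions over libraries of 3 kinds and carry no test.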

How the data were processed

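RNA from sorted liver cells was made into libraries with the Illumina TruSeq RNA v2 kit from 75 to 200 ng of total RNA, per the labels' protocols. The table deposited by the authors gives RPKM per RefSeq transcript row, to 2 decimals. Bowtie 0.12.7, CASAVA and mm9 are named in the submitters' processing notes, and how transcripts were counted is not given in the sources used here. Read numbers were not used directly: depth was estimated from the smallest steps of RPKM values, and intervals of counting error cover that error only. Of the members 3 have several transcript rows, and how reads that fit more than one row were counted is not given in the sources used here. Of the 14 columns 12 matched a sample title and 2, numbered 220 where the remaining titles have 120, were matched to their group only. The series text counts 3 hepatocyte samples and the table holds 4, all of which were used.

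Tests were made with limma 3.58.1 (R 4.3.3) on log2 values after adding a pseudocount of 1 to the RPKM (mean-variance trend, two-sided, 14 libraries in 3 groups), for symbols that reached 1 RPKM in 4 or more libraries, and p-values were adjusted by Benjamini-Hochberg over all 12638. A second fit took values less that of Alb in the same library. A share is the ductal mean over the hepatocyte mean. The script was tested on simulated data. The members and lists were chosen with earlier results of these data known. Named genes are the members, up to 4 genes of each list with the smallest adjusted p in hepatocyte-derived cells against hepatocytes, Afm, Itih1, Itih2, Itih3, Zhx2 and Zfhx3, the 5 symbols closest to Alb and to Afp, and the most abundant marker of each other cell type; some genes that the rule names are not reported here. Among alternatives were the pseudocount, the filter, scaling, rows of a symbol, a replicate block, library weights and leaving out libraries. Figures were drawn with matplotlib 3.10.9.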

Additional observations from a re-analysis of the deposited data

Results flagged for a closer look

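Each member was examined in each group for a library far from the others by Dixon's test at 95%, 30 groups in all, of which chance flags about 1 in 20. In 4 of them a library stood apart. Afp was 5.81 RPKM in cholangiocyte-derived ductal library 219, where the nearest other library of the group had 2.19. Ttr was 971.03 RPKM in hepatocyte-derived ductal library 220 (nearest 667.28), and Rbp4 was 948.28 RPKM in the same library (nearest 565.98), which was the highest of its group for 7 of the 10 members. Rbp4 was 52.68 RPKM in cholangiocyte-derived ductal library 611 (nearest 139.12), which was the lowest of its group for 7 of the 10 members.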

How the results depend on the processing

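Leaving out each library in turn gave 9 members called in hepatocyte-derived ductal cells against hepatocytes, 9 to 10 in cholangiocyte-derived cells and 7 to 8 between the ductal groups. Counts of all symbols called are not given for leaving out libraries, the filter or the block, so those member counts carry no background. Over the 26 alternatives the members' differences kept direction and side of the threshold in 737 cases, turned direction in 13, lost the call in 23 and gained one in 7. With no filter on low values only 4 members were called in hepatocyte-derived cells against hepatocytes and 4 between the ductal groups, with the differences unchanged in size, and in cholangiocyte-derived cells Alb and Ambp lost the call (adjusted p = 0.461 and 0.0893). Dropping only the symbols at 0 in every library, an alternative chosen after seeing the data, gave 9 and 6, with Alb and Ambp not called between the ductal groups (adjusted p = 0.556 and 0.256). Library weights raised the members changed relative to Alb between the ductal groups to 7, of which Fetub and Ambp were lower. In the fit not relative to Alb, library weights raised the symbols higher in hepatocyte-derived than in cholangiocyte-derived cells from 1913 to 2987. Quantile normalization made that count 3069. For all symbols, median ratios gave 4670 higher and 4613 lower in hepatocyte-derived cells and 5050 and 4821 in cholangiocyte-derived cells against hepatocytes, and quantile normalization 4596 and 4136, and 4891 and 4769. The median shares kept became 16.5% and 6.30% after median ratios and 53.8% and 24.3% after quantile normalization. The cause of these shifts was not tested.

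With quantile normalization, differences that turned direction against hepatocytes were Gc (0.043), Ahsg (0.30) and Ambp (0.58) in hepatocyte-derived cells and Ambp (0.60) in cholangiocyte-derived cells, and between the ductal groups Ambp (-0.020). Relative to Alb it gave Fetub -0.17 and -0.36 against hepatocytes and 0.19 between the ductal groups, where Afp became 0.63 and Ttr 0.69. Afp in hepatocyte-derived cells against hepatocytes was -0.61 with median ratios, -0.95 with quantile normalization, -0.043 with library weights, -0.031 without both libraries numbered 219 (chosen after seeing the data) and -0.13 to 0.18 on leaving out one library. Leaving out one library gave, relative to Alb, Ahsg -0.27 to 0.31 and Itih4 -0.34 to 0.082 in cholangiocyte-derived cells against hepatocytes, and Afp -0.48 to 0.13 and Ttr -0.17 to 0.050 between the ductal groups. Ahsg was -0.27 without both libraries numbered 219.

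Libraries of one number deviated from their group means together in 8 of 9 pairs (r over 0.1, lowest 0.021, median 0.212). Of 39 pairs of different numbers 9 were also over 0.1, with r up to 0.458 and a median of -0.043. Of 12 libraries 9 correlated best with their own number, a hint from the data and not from the design. With the library number as a replicate block, 9, 9 and 7 members were called, again with no count of all symbols beside them. The block turned Afp in hepatocyte-derived cells against hepatocytes to -0.11 and, relative to Alb, Ahsg in cholangiocyte-derived cells to -0.086 and Ttr between the ductal groups to 2.51e-04. With the block the Ambp difference between the ductal groups was 0.35 (adjusted p = 0.0649), and Trf relative to Alb was called (0.73, adjusted p = 0.0170). No other call on a member changed. Depth limits mainly Afp, at 51.3 estimated reads in its lowest library.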
